A study of Mus musculus with 2 samples.

Results

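The replication-dependent histone genes are described here in single cells of the mouse fetal lung. Members were all gene rows of the expression matrix whose symbol begins with Hist1h, Hist2h, Hist3h or Hist4h, which gave 67 of 32285 genes. They were 6 genes of the linker histone H1, 18 of H2A, 18 of H2B, 12 of H3 and 13 of H4. Of these, 54 lie in the Hist1 group on chromosome 13, 10 in Hist2 on chromosome 3, 2 in Hist3 on chromosome 11 and 1, Hist4h4, on chromosome 6. The rule used symbols and no measured value, although it was set with earlier results of these data known.

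Core histones H2A, H2B, H3 and H4 form the protein spool of the nucleosome, and H1 binds the DNA where it enters and leaves that spool. The replication-dependent genes supply histones for newly copied DNA, and their mRNAs build up in S phase and are degraded when replication stops. These mRNAs usually end in a conserved stem-loop that stem-loop binding protein recognises, and not in a poly(A) tail, whereas some members can also give polyadenylated mRNA in cells that do not divide.

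The cells came from wild-type fetal lungs harvested on gestation day 18. Mothers aged 9 weeks drank water with the synthetic glucocorticoid dexamethasone (DEX, 1.3 µg/ml) from gestation day 12, or water with phosphate-buffered saline (PBS) over the same period. Lungs were pooled within a litter, from 8 (DEX-1), 9 (DEX-2), 5 (PBS-1) and 8 (PBS-2) fetuses, and live CD45+ Lin- ST2+ cells were sorted, a gate set for group 2 innate lymphoid cells (ILC2s). Each litter carried its own hashtag, and all 4 litters were read in 1 gene expression library, so litters did not differ by library. The litter was the replicate, with 2 litters a group. The labels tie each hashtag to its own numbered mother, whereas the legend to the study's plots of these cells names a single pregnant dam for each treatment. The labels were followed, and were the legend right, the spread between litters would not be one between mothers. The sexes and single fetuses within a litter cannot be told apart. The library copied RNA from poly(A) with an oligo-dT primer and counted 1 unique molecular identifier (UMI) at the 5′ end of each cDNA molecule, so a count does not grow with transcript length.

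After filtering and hashtag calling, 7268 cells with a single litter tag were kept, with 1737 to 1890 cells and 18665955 to 23660294 gene UMIs a litter. The gate held more than ILC2s. ILC2-like cells were 2058 (28.3%), with Gata3 in 88.6% of them and Il7r in 96.1%, while the classical ILC2 marker Klrg1 was in 6.03%. Basophil- or mast-like cells were 3227 (44.4%), with Hdc in 99.8% and Cpa3 in 97.0%. Other markers on their list were in fewer of them, such as Ms4a2 in 45.5%, Mcpt4 in 34.4%, Mcpt8 in 24.4% and Fcer1a in 15.8%. Kit, also on that list, was in 76.5% of ILC2-like cells, and Il7r was in 47.5% of basophil- or mast-like cells. The T cell marker Cd3g was in 87.0% and 82.8% of the cells of the 2 ILC2-like clusters, Cd3e in 18.3% and 17.7%, and Cd4 and Cd8a in under 1%. Hdc, which marks mast cells, was in 20.7% of ILC2-like cells, so low counts of a gene in a class may include RNA of other cells, and the part of such RNA in the levels below was not tested.

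Cells were sorted by cycle state from genes that are not members. Mitotic cells held 5 or more UMIs over Mki67, Top2a, Cdk1, Birc5, Ube2c, Nusap1, Tpx2 and Cenpf. Replicating cells held fewer of those and 5 or more UMIs over 12 replication genes such as Mcm5, Pcna and Tyms, and resting cells held 0 UMIs of the first set and under 5 of the second. Most mitotic cells passed the replication limit too, 384 of 449 ILC2-like and 208 of 241 basophil- or mast-like cells. The state names thus stand for these limits and not for phases of the cycle. Levels below are UMIs of a gene per 1000000 gene UMIs of the same litter and state (CPM), unless another scale is named.

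The stem-loop at the end of the mRNA was searched in the annotated transcripts of GENCODE (GRCm38) on the sense strand, as the stem arm GGNNCT, the loop TTTN and the second arm AGNNCC in direct succession, where N is any base. It was found in 44 of the 67 members (65.7%), in 44 of the 54 with an annotated 3′ untranslated region (UTR), and in 28 of 21834 other protein-coding genes (0.128%). In 22 of the 44 the annotated transcript ran on for 100 or more bases past it. The sites of 5 abundant members are shown because they carry nearly the same motif but different lengths of annotated transcript after it, and the motif is in capitals.
Hist1h1c, chr13:23739506-23739533, + strand: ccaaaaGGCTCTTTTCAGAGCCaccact
Hist1h1e, chr13:23621776-23621803, - strand: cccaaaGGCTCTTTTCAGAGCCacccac
Hist1h4d, chr13:23581944-23581971, + strand: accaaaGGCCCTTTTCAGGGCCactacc
Hist1h2ae, chr13:23570662-23570689, - strand: aacaaaGGCTCTTTTCAGAGCCattcac
Hist1h2bj, chr13:22043632-22043659, + strand: tccaaaGGCTCTTTTCAGAGCCacgcac
The annotated transcript continued for 840 bases after the motif in Hist1h1c, 1153 in Hist1h1e, 770 in Hist1h4d, 151 in Hist1h2ae and 23 in Hist1h2bj. Hist1h1a, with a UTR annotated for 48 bases, and Hist1h1b, with no UTR annotated, held no match in the annotated sequence.

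Promoters were read from RefSeq (GRCm38.p6) as the 150 bases before the gene start, which were given for 62 of the 67 members. The CCAAT box, searched on both strands, was in 51 of 62 (82.3%) against 25.1% of 26963 other genes. It was in all 6 H1, all 18 H2A and all 16 H2B promoters read, in 8 of 10 of H3 and in 3 of 12 of H4. These windows are not all separate. Those of some H2A and H2B neighbours on opposite strands overlap, as for Hist1h2ad and Hist1h2bf, so the same box can count for both. Hist1h2bq and Hist1h2br held the same sequence. TATAAA, searched on the sense strand, was in 22 of 62 (35.5%) against 5.19% of other genes. AAACACA, an element known from H1 promoters and searched on both strands, was in 5 of 6 H1 promoters, in 8 of 62 over all members and in 3.48% of other genes. The promoters of 4 H1 genes are shown because these genes hold both the largest and some of the smallest differences between cell states described below, with the CCAAT box on either strand, TATAAA and the H1 element in capitals.
Hist1h1a, chr13:23763518-23763667, + strand: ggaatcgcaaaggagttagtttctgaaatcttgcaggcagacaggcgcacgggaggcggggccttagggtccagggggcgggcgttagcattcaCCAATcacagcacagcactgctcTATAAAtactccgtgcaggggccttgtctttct
Hist1h1b, chr13:21780626-21780775, - strand: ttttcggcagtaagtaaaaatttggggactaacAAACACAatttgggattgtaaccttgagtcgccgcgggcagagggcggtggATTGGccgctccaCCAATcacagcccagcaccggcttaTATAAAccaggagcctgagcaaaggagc
Hist1h1c, chr13:23738657-23738806, + strand: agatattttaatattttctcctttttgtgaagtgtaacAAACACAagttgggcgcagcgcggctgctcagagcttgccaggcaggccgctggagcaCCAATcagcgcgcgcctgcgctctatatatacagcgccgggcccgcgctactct
Hist1h1e, chr13:23622559-23622708, - strand: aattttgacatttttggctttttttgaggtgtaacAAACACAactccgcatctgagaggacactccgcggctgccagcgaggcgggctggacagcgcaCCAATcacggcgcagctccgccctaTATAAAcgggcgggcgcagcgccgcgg
All 4 held CCAAT, Hist1h1c held no TATAAA and Hist1h1a held no AAACACA in this window.

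Member UMIs were few and concentrated in few genes and few cells. The oligo-dT primer copies from poly(A), so member mRNA that ends in the stem-loop may be missed. Levels and shares of genes and types are therefore those of the captured RNA, and the part that was missed was not tested. The 67 members held 78500 of 82339643 gene UMIs (0.0953%), and 64 of them had at least 1 UMI in the kept cells. Hist1h2bq, Hist1h2ba and Hist1h2aa had none. Hist1h1e alone, an H1 subtype found in most somatic cells, held 24.8% of member UMIs, the top 3 members 49.7% and the top 12 86.4%. The other 27 members with fewer than 100 UMIs, the 3 without any included, ranged from 0 to 99. Mitotic cells were 1152 of the cells kept (15.9%) and held 52812 member UMIs (67.3%).

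Near-identical copies limit what the rows can tell apart. In 32 members, at least 50% of all windows of 60 bases also occurred in another gene, and 5 members shared no window. The counting by the authors' pipeline keeps reads that match a single gene, so levels of single core histone members and sums over the core types are uncertain. Hist1h1a and Hist1h1b shared no window, and Hist1h1c shared 7.59% and Hist1h1e 30.6% of windows.

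In ILC2-like cells, mitotic cells held several times more member mRNA than resting cells in every litter. The summed level was 3300, 3278, 2929 and 2906 CPM in mitotic cells of DEX-1, DEX-2, PBS-1 and PBS-2, and 525, 443, 369 and 379 CPM in their resting cells. The groups of values did not overlap, and the ratio was 7.32 ± 0.725 (SD, n = 4 litters). Mitotic cells were deeper, with a median of 14126 UMIs against 5634.5. With each cell thinned to 2000 UMIs, 88.4% of mitotic and 52.2% of resting cells held a member UMI, against 99.1% and 80.9% without thinning, and 19 resting cells were too shallow to thin.

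Basophil- or mast-like cells showed the same order with a smaller ratio. Their mitotic cells held 2783, 3134, 2842 and 2737 CPM in the same order of litters, and their resting cells 669, 569, 522 and 578 CPM. The ratio was 4.96 ± 0.640 (SD, n = 4 litters), and the highest litter (5.51) was below the lowest ILC2-like litter (6.29). Single clusters did not keep this separation of the classes. Over all litters together their ratios were 8.10, 5.94, 3.41 and 3.03 in basophil- or mast-like clusters and 6.85 and 5.78 in ILC2-like clusters. After thinning, 92.5% of mitotic and 57.4% of resting cells held a member UMI, with 99.6% and 79.6% before it, and 1 mitotic and 239 resting cells were left out.

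Most members tested were higher in mitotic than in resting ILC2-like cells. Of the 67 members, 34 passed the filter on low counts, and 32 of them were called higher and 0 lower, where 24.3% of the 8877 genes tested were called higher (edgeR quasi-likelihood test on sums per litter, with litter as a term and Benjamini-Hochberg adjusted p under 0.05). The median log2 fold change was 3.26 over these members and -0.03 over all genes. A gene that is high in mitotic cells alone passes the filter through those cells, so the count is a description. Without the filter 64 members were tested and 42 were called higher, where 13.4% of all genes were.

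Of the members, 34 passed the filter in basophil- or mast-like cells, and 33 were called higher and 0 lower, where 27.3% of 9950 genes were called higher. Without the filter it was 44 of 63, where 13.7% of all genes were called higher. The plot of resting against mitotic levels shows the members of both classes.

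**Figure D1:**
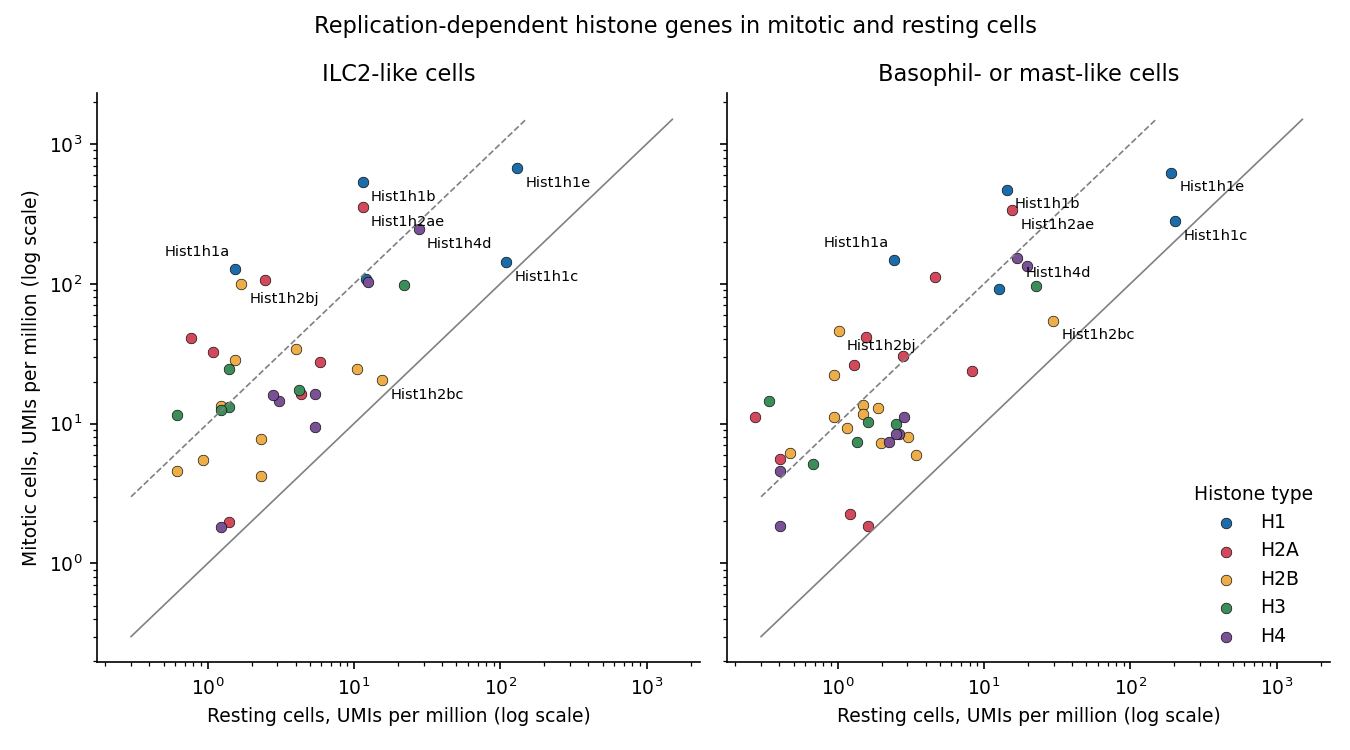
Level of each member in resting cells (x axis) and mitotic cells (y axis), in CPM on log axes, for the 35 members of ILC2-like cells and the 41 of basophil- or mast-like cells with more than 3 UMIs in both states. The solid line marks equal levels and the dashed line a 10-fold difference: Hist1h1a, Hist1h1b and several H2A and H2B genes lie above the dashed line, and Hist1h1c and Hist1h2bc lie near the solid line.

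The histone types differed in the level that was counted in resting cells. In ILC2-like cells H1 was at 1603 ± 154 CPM in mitotic and 265 ± 57.2 CPM in resting cells (SD, n = 4 litters). H2A was at 622 ± 41.2 and 29.5 ± 10.4 CPM, H2B at 274 ± 28.1 and 41.8 ± 4.85 CPM. H3 was at 184 ± 21.1 and 32.2 ± 3.11 CPM, and H4 at 420 ± 7.26 and 60.6 ± 6.76 CPM. H1 therefore made up 51.5% of member UMIs in mitotic and 61.7% in resting cells, and H2A 20.2% and 6.94%.

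After thinning to 2000 UMIs, H2A was detected in 57.2% of mitotic and 5.80% of resting ILC2-like cells, and H4 in 53.0% and 11.2%. H1 was detected in 75.3% and 34.8%. In basophil- or mast-like cells H1 was at 1568 ± 156 CPM in mitotic and 421 ± 43.8 CPM in resting cells, and made up 55.2% and 72.1% of member UMIs. Their H2A level was 596 ± 36.1 and 38.1 ± 4.89 CPM, and the types stood in the same order in mitotic cells of both classes.

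**Figure D2:**
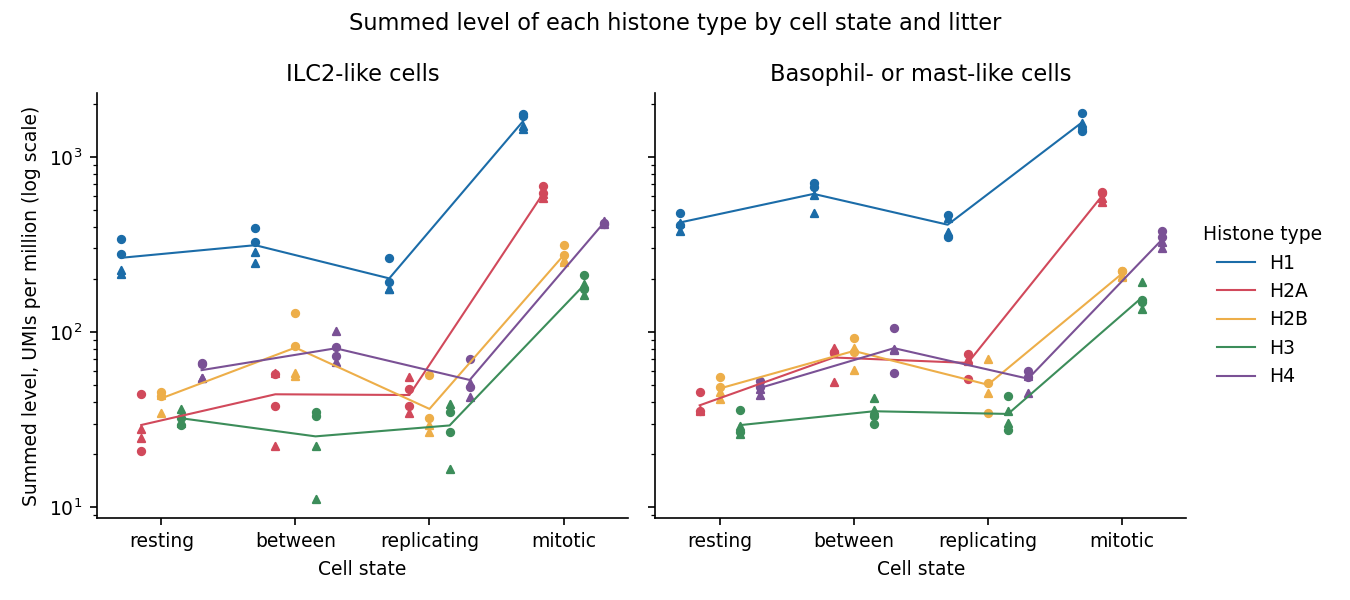
Summed level of each histone type in CPM (log y axis) by cycle state, with a panel for each of the 2 classes, where circles are DEX litters, triangles PBS litters and lines the mean of the 4 litters. Mitotic cells stand above the other states for every type in both classes, and H1 is the highest type in every state.

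Within H1, the members split by how much of their mRNA resting cells held. Hist1h1a, Hist1h1b and Hist1h1d are somatic subtypes of H1 alongside Hist1h1c and Hist1h1e, and Hist1h1t is the testis subtype. Hist1h1b was at 561, 556, 522 and 511 CPM in mitotic ILC2-like cells of DEX-1, DEX-2, PBS-1 and PBS-2. In resting cells it was at 18.6, 8.77, 8.68 and 9.51 CPM, a log2 difference of 5.59 ± 0.12 (SE, edgeR quasi-likelihood test, Benjamini-Hochberg adjusted p = 1.26e-19). It was thus among the most abundant members of mitotic cells and was in 1.75% of thinned resting cells.

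Hist1h1a was at 153, 137, 100.3 and 121 CPM in mitotic and at 1.80, 2.70, 0.578 and 1.27 CPM in resting ILC2-like cells. Its log2 difference was 6.34 ± 0.20, the highest of the members tested in this class, and no litter overlapped. Hist1h1d was at 115, 124, 92.3 and 105 CPM against 13.8, 15.5, 8.10 and 11.4 CPM, a log2 difference of 3.21 ± 0.13.

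Hist1h1e was the most abundant member in both states. It was at 746, 733, 678 and 577 CPM in mitotic and at 156, 121, 128 and 115 CPM in resting ILC2-like cells, a log2 difference of 2.44 ± 0.06 (edgeR quasi-likelihood test, Benjamini-Hochberg adjusted p = 7.36e-18). After thinning it was in 54.8% of mitotic and 20.1% of resting cells. Hist1h1t had 13 UMIs in all and was not tested.

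Hist1h1c stood apart from the other H1 genes. It was at 143, 199.98, 113 and 125 CPM in mitotic and at 149, 132, 70.0 and 88.7 CPM in resting ILC2-like cells. Mitotic cells were above resting cells in 3 of 4 litters, and in DEX-1 they were slightly below. The log2 difference was 0.45 ± 0.10 (edgeR quasi-likelihood test, Benjamini-Hochberg adjusted p = 0.00103), and without the litter term the adjusted p was 0.103.

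The H1 genes had the same order of differences in basophil- or mast-like cells. Hist1h1a was at 151, 173, 130.0 and 123 CPM in mitotic and at 2.64, 3.01, 1.497 and 2.46 CPM in resting cells (log2 difference 5.84 ± 0.16). Hist1h1b was at 422, 555, 428 and 403 CPM against 12.7, 15.05, 9.28 and 19.7 CPM. Both were far apart between the states in each litter.
Hist1h1e was at 498, 679, 614 and 621 CPM against 206, 160.0, 184 and 208 CPM, a log2 difference of 1.65 ± 0.11. Hist1h1c was at 261, 277, 297 and 278 CPM against 244, 221, 166 and 178 CPM. Its log2 difference was 0.45 ± 0.11 (edgeR quasi-likelihood test, Benjamini-Hochberg adjusted p = 0.00229), with mitotic cells higher in 4 of 4 litters.

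The cells of a class were not spread evenly over its clusters, which bears on Hist1h1c. In ILC2-like cells, a cluster of 622 cells led by Trbc1, Tcrg-C4 and Lck held 59.0% of mitotic and 17.2% of resting cells, and a cluster of 1436 cells led by Krt83 and Bmp7 held the rest. Of the 10 leading genes of the first, Trbc1, Trbc2, Tcrg-C4 and Lck are genes of T cells and Thy1 alone is on the ILC2 marker list, so most mitotic cells of the class came from a cluster whose leading genes are more of T cells. It was kept in the class on the marker lists, with a mean of 65.6% of its cells holding an ILC2 marker and 19.6% a T cell marker of the list, and values within and without it are given for the main results. The summed member level was 3305 CPM in mitotic and 571 CPM in resting cells of the first, and 2737 and 399 CPM in the second, so mitotic cells were higher within both. For Hist1h1c alone, the log2 difference of mitotic against resting cells was -0.19 (adjusted p = 0.444) within the first and 0.76 (adjusted p = 3.66e-05) within the second (edgeR quasi-likelihood test with Benjamini-Hochberg adjustment).
Basophil- or mast-like cells gave a like split for Hist1h1c, with -0.35 (adjusted p = 0.182) within the cluster led by Gzmb, which held 54.8% of mitotic and 4.30% of resting cells, and 1.03 (adjusted p = 2.87e-06) without that cluster. The higher Hist1h1c level of mitotic cells was thus not found within the cluster of either class that held most of its mitotic cells. The summed level was 3.03 to 8.10 times higher in mitotic cells of each of the 4 basophil- or mast-like clusters. The largest ratio rested on 32 mitotic cells, with litters from 1438 to 3199 CPM. The next, 5.94, rested on 14 mitotic cells, with litters from 1184 to 4904 CPM.

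The H2A genes, whose protein pairs with H2B at the rim of the nucleosome, had low resting levels. Of the 18 H2A genes, 9 passed the filter in ILC2-like cells, which genes high in mitotic cells alone can pass through those cells. All 9 were called higher in mitotic cells, where 24.3% of all genes tested were, with log2 differences of 1.95 to 5.63. Hist1h2ae was at 372, 358, 339 and 351 CPM in mitotic and at 19.2, 9.45, 7.52 and 9.51 CPM in resting cells (log2 difference 4.99 ± 0.13). Hist1h2ap was at 125, 104, 93.8 and 103 CPM against 4.20, 2.02, 2.89 and 0.634 CPM (5.43 ± 0.20). Hist1h2ab (5.63 ± 0.30), Hist1h2ak (4.86 ± 0.37) and Hist1h2af (4.68 ± 0.47) lay near these, and Hist2h2ac (2.28 ± 0.24) and Hist1h2ac (1.95 ± 0.29) lay lower. Hist1h2ag and Hist1h2ai had 2 and 3 UMIs in resting cells, and their mitotic to resting ratios were 31.3 (exact 95% counting interval 8.33 to 264) and 20.2 (6.61 to 101).

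Of the 18 H2B genes, 8 passed the same filter in ILC2-like cells and 7 were called higher, where 24.3% of all genes tested were. Hist1h2bj was at 93.0, 113, 95.9 and 97.2 CPM in mitotic and at 1.80, 0.675, 1.74 and 2.54 CPM in resting cells (log2 difference 5.85 ± 0.21). Hist1h2bc was at 20.6, 24.7, 14.4 and 21.7 CPM against 20.4, 17.5, 10.4 and 14.6 CPM, and its log2 difference of 0.41 ± 0.19 missed the threshold (edgeR quasi-likelihood test, Benjamini-Hochberg adjusted p = 0.0829). Hist1h2bc was thus below Hist1h2bj in mitotic cells of every litter and above it in resting cells of every litter.
Hist1h2bb had 92 UMIs in mitotic and 1 in resting ILC2-like cells, a ratio of 90.1 with an exact 95% counting interval of 15.8 to 3596. Hist1h2bm (4.20 ± 0.33), Hist1h2bh (3.41 ± 0.38), Hist2h2bb (3.14 ± 0.25) and Hist3h2ba (1.27 ± 0.21) gave smaller log2 differences. In basophil- or mast-like cells Hist1h2bc was called higher, at 0.87 ± 0.13 (adjusted p = 3.09e-05), and Hist2h2be missed the threshold at 0.87 ± 0.40 (adjusted p = 0.0774 by the same edgeR test).

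H3 and H4 form the inner tetramer of the nucleosome. Hist1h3e was at 116, 88.4, 84.4 and 96.7 CPM in mitotic and at 20.4, 20.9, 23.1 and 23.5 CPM in resting ILC2-like cells (log2 difference 2.18 ± 0.12). Of the 12 H3 genes, 6 passed the filter in ILC2-like cells. The other 5 of these, Hist1h3f, Hist1h3i, Hist1h3a, Hist1h3c and Hist1h3g, had log2 differences of 2.07 to 4.14. All 6 were called higher, where 24.3% of all genes tested were. In basophil- or mast-like cells 7 of the 12 were tested and all 7 were called higher, where 27.3% of all genes tested were. Hist1h3g was called there on 43 mitotic UMIs and 1 resting UMI.
Hist1h4d was at 231, 258, 256 and 246 CPM in mitotic and at 29.4, 27.7, 27.2 and 26.6 CPM in resting ILC2-like cells (log2 difference 3.20 ± 0.09). Hist1h4i was at 104, 89.1, 120.5 and 99.1 CPM against 15.001, 14.2, 9.83 and 11.4 CPM (3.08 ± 0.14). Hist1h4c (2.57 ± 0.37), Hist1h4h (2.25 ± 0.32) and Hist2h4 (1.58 ± 0.27) were called higher too. Hist4h4, which lies outside the 3 larger groups of histone genes, had a log2 difference of 0.79 ± 0.33 that missed the threshold (edgeR quasi-likelihood test, Benjamini-Hochberg adjusted p = 0.0527).

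Of the remaining named members, all but Hist1h2bn were too low in ILC2-like cells to be tested between mitotic and resting cells. Hist1h2be had 51 UMIs in mitotic and 15 in resting cells, Hist1h2bg 36 and 6, Hist2h2be 28 and 15, Hist1h2bf 30 and 4, Hist1h4k 36 and 3, and Hist2h2aa1 13 and 9. Hist1h2bn had 57 and 3, and was called higher at 4.05 ± 0.55. Hist2h2aa1 had the lowest share of its UMIs in mitotic cells among members with at least 100 UMIs, at 30.7%, followed by Hist1h1c at 32.6%, and Hist1h2af had the highest at 94.0%.

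Over all litters together, member levels were higher in cells with more mitotic UMIs up to 39, and not higher still beyond. ILC2-like cells with 0 mitotic UMIs held 416 CPM of member mRNA, those with 1 to 4 held 445, those with 5 to 9 held 608, and those with 10 to 19 held 1980. Cells with 20 to 39 held 3644 CPM and cells with 40 or more held 3477. The 50 cells just above the limit of 5 UMIs were thus closer to resting cells than to the 231 cells with 40 or more, and the bin of 10 to 19 UMIs, with 54 cells, spread from 508 to 2742 CPM between litters. Basophil- or mast-like cells gave 577, 800.4, 1069, 1727, 4007 and 3450 CPM over the same bins. Not every litter kept this order. From 1 to 4 to 5 to 9 UMIs the level fell in PBS-1 of ILC2-like cells (384 to 351 CPM) and in DEX-1 of the other class (867 to 681 CPM), and rose in the other litters. From 20 to 39 to 40 or more UMIs it rose in DEX-2 and PBS-2 of ILC2-like cells and in DEX-1 of the other class, and fell in the rest. The bins use raw UMIs, and cells with more were deeper, with a median of 5960 UMIs at 0 and 16195 at 40 or more in ILC2-like cells. Mitotic cells were also split into low, middle and high groups by other mitosis genes per 10000 UMIs. These held 2122, 4178 and 2967 CPM in ILC2-like cells and 1728, 3528 and 3576 CPM in the other class.

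Mitotic cells that also passed the limit of replication UMIs held more member mRNA than those that did not. Among mitotic ILC2-like cells, the 384 with 5 or more UMIs of the 12 replication genes held 3613, 3353, 3210 and 3151 CPM in DEX-1, DEX-2, PBS-1 and PBS-2. The 65 with fewer held 1186, 2752, 853 and 1168 CPM, so every litter was higher with replication mRNA, and DEX-2 was closest. The values in basophil- or mast-like cells were 3018 CPM in 208 cells and 1740 CPM in 33 cells over all litters. This limit is in raw UMIs, and those 208 cells were deeper (median 20692.5 UMIs against 10455). Mitotic cells were also split into low, middle and high groups by other replication genes per 10000 UMIs. Their member levels were 2112, 3859 and 3306 CPM in ILC2-like cells and 2283, 3205 and 3146 CPM in the other class. The high group was thus not the highest in either class.

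Cells in the replicating state, which held replication mRNA and at most 4 mitotic UMIs, did not share the high level. They were only some of the cells with replication mRNA, since 384 of 449 mitotic ILC2-like cells passed the same limit. They were not free of mitotic mRNA, since the 3 genes of the mitotic set that could be tested in ILC2-like cells were all higher than in resting cells, as were 4 of 4 in basophil- or mast-like cells, a difference that the definition of resting cells fixes. Their summed member level was 465, 347, 320 and 327 CPM in ILC2-like cells of DEX-1, DEX-2, PBS-1 and PBS-2 (365 ± 67.8, SD, n = 4 litters), below the resting level in each litter, and 42.6% of thinned cells held a member UMI against 52.2% of resting cells. In basophil- or mast-like cells it was 614 ± 74.0 CPM, and 58.4% of thinned cells held a member UMI against 57.4%.

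The members moved in different directions between replicating and resting cells. Of 10 members tested in ILC2-like cells, 2 were called higher, where 17.3% of 8390 genes were, and 3 lower, where 14.2% of genes were. Hist1h1b (log2 difference 1.20 ± 0.25, adjusted p = 0.000459) and Hist1h2ae (1.06 ± 0.28, adjusted p = 0.00426) were higher. Hist1h1c (-0.98 ± 0.13, adjusted p = 4.51e-07), Hist1h1e (-0.36 ± 0.11, adjusted p = 0.0094) and Hist1h2bc (-1.01 ± 0.30, adjusted p = 0.00983) were lower, all by edgeR's quasi-likelihood test with Benjamini-Hochberg adjustment. Hist1h1c was at 84.5, 60.8, 25.9 and 46.2 CPM in replicating cells of DEX-1, DEX-2, PBS-1 and PBS-2, below resting cells in 4 of 4 litters.
The call of Hist1h1c held within each of the 2 clusters, at -1.20 (adjusted p = 0.000202) in the cluster led by Trbc1 and -1.12 (adjusted p = 1.04e-06) in the one led by Krt83. Hist1h1e fell by 0.83 (adjusted p = 0.0012) in the first, and its difference in the second was -0.27 (adjusted p = 0.16, edgeR as before). Without PBS-1, 3 members were called in this comparison. The adjusted p of Hist1h2ae was then 0.0881 and that of Hist1h1e 0.0526, that of Hist1h1e was 0.0573 without DEX-2, and that of Hist1h2bc was 0.0507 without DEX-1. Hist1h2ae was not called without the cluster led by Trbc1 (0.52, adjusted p = 0.379) or at a state limit of 3 UMIs (adjusted p = 0.0517), and Hist1h1e neither without the litter term (adjusted p = 0.0624) nor after thinning (adjusted p = 0.0712). DESeq2 called Hist1h1b and Hist1h1c alone, with adjusted p of 0.0649 for Hist1h2ae, 0.151 for Hist1h1e and 0.19 for Hist1h2bc.

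Of 11 members tested in basophil- or mast-like cells, 3 were called higher, where 18.8% of 9809 genes were, and 1 lower, where 15.4% were. Hist1h2ap (1.20 ± 0.27, adjusted p = 0.00402), Hist1h1b (1.17 ± 0.24, adjusted p = 0.002) and Hist1h2ae (1.14 ± 0.16, adjusted p = 8.48e-05) were higher, and Hist1h1c (-0.40 ± 0.09, adjusted p = 0.00519) was lower by the edgeR test with Benjamini-Hochberg adjustment. None of the 4 was called within the cluster led by Gzmb, and 2 were called without it. The call of Hist1h1c was also lost without the litter term (adjusted p = 0.132), at a state limit of 3 UMIs (-0.17, adjusted p = 0.229) and without the deepest 5% of cells (adjusted p = 0.0573, each by edgeR), and that of Hist1h2ae after thinning (adjusted p = 0.0511).

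Members were also detected in the other sorted classes, which are described without a test because the classes come from clusters of the same cells. Mitotic and resting cells held 1906 and 348 CPM of member mRNA in endothelial-like cells, 1779 and 259 in macrophage- or monocyte-like cells, 1415 and 380 in mesenchymal-like cells, and 713 and 221 in epithelial-like cells. The 572 cells in clusters without a name held 1209 and 212 CPM. B-like cells had 1 mitotic cell, and their 183 resting cells held 838 CPM (litters 707 to 991), the highest resting level of any class.
The members behind the resting level differed by class. Hist1h1e was at 429 CPM in resting B-like cells (litters 338 to 498), against 84.8 to 189 CPM in the other named classes with values by state. Hist1h1c was at 204 CPM in resting basophil- or mast-like cells (166 to 244), 109 CPM in ILC2-like cells (70.0 to 149), 97.5 CPM in mesenchymal-like cells (64.5 to 124) and 79.4 CPM in B-like cells (52.8 to 104), and these neighbours overlapped between litters except for the first pair. It was at 49.9 CPM in endothelial-like, 37.4 CPM in macrophage- or monocyte-like and 24.5 CPM in epithelial-like resting cells.

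The difference between mitotic and resting cells was then set against class in 1 model of ILC2-like cells and of basophil- or mast-like cells. Of 36 members tested, 3 differed more in ILC2-like cells and 0 less, where 11.3% of 9998 genes were called higher and 5.13% lower. They were Hist1h1e (0.93 ± 0.16 on the log2 scale, adjusted p = 0.000271), Hist1h2ae (0.74 ± 0.23, adjusted p = 0.0293) and Hist1h2bb (adjusted p = 0.0138), all by edgeR's quasi-likelihood test with Benjamini-Hochberg adjustment. The difference for Hist1h2bb rested on 1 UMI in resting ILC2-like cells. Hist1h1e was called whichever litter was left out, whereas the adjusted p of Hist1h2ae was 0.0706 to 0.145 without DEX-2, PBS-1 or PBS-2, and that of Hist1h2bb 0.0577 to 0.0768 without DEX-1, PBS-1 or PBS-2. The call of Hist1h2ae was also lost with the size factors of DESeq2 (adjusted p = 0.0704), by DESeq2 itself (0.136), at a state limit of 3 UMIs (0.0599) and without the deepest 5% of cells (0.274), where that of Hist1h2bb was 0.0506. Hist1h1c differed by 0.14 ± 0.20 (adjusted p = 0.703). With each cell thinned to 2000 UMIs, 0 of these calls were made, and likewise 0 within the most mitotic cluster of each class. Without the filter 5 of 64 members were called, where 9.16% of genes were, with Hist1h1b higher in addition and Hist3h2ba lower (-1.31). Over all genes 68.8% of calls were higher, and 50.3% with the size factors of DESeq2, which moved the median of all genes from 0.12 to -0.00.

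The annotated ends of the members went with different ratios of mitotic to resting level, over the 40 members with at least 100 UMIs and with a floor of 3 UMIs for resting cells. In ILC2-like cells the 16 members whose transcript ran 100 or more bases past the stem-loop had a median ratio of 4.80, from 1.30 for Hist1h1c to 31.0 for Hist1h2ae. The 12 with the motif within 100 bases of the annotated end had a median of 18.1, from 1.41 for Hist2h2aa1 to 58.1 for Hist1h2bj. The 12 without the motif had a median of 18.6, from 1.31 for Hist1h2bc to 82.8 for Hist1h1a. The medians were 3.82, 12.4 and 17.0 in basophil- or mast-like cells, and the ranges overlapped in both classes. The part of the annotated end in these ratios was not tested.

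Genes around the members were counted from lists. Of 22 genes for 3′ processing and decay of histone mRNA, 18 were tested in ILC2-like cells and 10 were higher and 1 lower in mitotic than in resting cells, where 24.3% of all genes tested were higher and 22.5% lower. Slbp, which binds the stem-loop, was higher by 1.88 ± 0.08 on the log2 scale, and Casp8ap2, a factor of the histone locus body, by 1.64 ± 0.14. Tut7, which adds uridines to RNA ends, was lower (-0.40 ± 0.11, adjusted p = 0.00404 by edgeR), and Lsm10, part of the U7 particle, was at -0.04 ± 0.14.
Of 22 histone chaperone and transport genes, 16 were higher and 0 lower. Asf1b, which hands H3 and H4 to other chaperones, was higher by 5.44 ± 0.17 and Chaf1a, a subunit of the assembly factor CAF-1, by 4.36 ± 0.24, while Cabin1 was at -0.24 ± 0.12 and the importin Ipo4 at -0.11 ± 0.22. The counts in basophil- or mast-like cells were 13 higher and 1 lower of 19 processing genes, and 20 higher of 22 chaperone genes, where 27.3% of all genes tested were higher and 25.1% lower.
Replication-independent histone variants, whose genes are not members, were counted too. All 10 tested were higher in mitotic ILC2-like cells, H2afx (4.18 ± 0.07), Cenpa of the centromere (3.91 ± 0.14), H1fx (2.70 ± 0.25), H2afz (2.39 ± 0.07) and H2afv (2.08 ± 0.06) the most. H2afj, H1f0, H3f3a, H2afy and H3f3b differed by 0.26 to 0.48. Of 10 in basophil- or mast-like cells 7 were higher, and H1f0 (-0.50 ± 0.14) and H3f3b (-0.22 ± 0.07) were lower. In replicating ILC2-like cells Slbp (1.38 ± 0.11), Chaf1a (3.92 ± 0.31) and Asf1b (3.51 ± 0.27) were higher than in resting cells.

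DEX litters were compared with PBS litters over all ILC2-like cells first. Hist1h1c was at 136 and 142 CPM in the DEX litters and at 80.0 and 97.0 CPM in the PBS litters, that is 139 ± 4.09 against 88.5 ± 12.0 CPM (SD, n = 2 litters each). Both DEX litters were above both PBS litters, and the log2 difference was 0.64 ± 0.10 (edgeR quasi-likelihood test, Benjamini-Hochberg adjusted p = 0.0019). It was the only call among 38 members tested, with 1 higher and 0 lower, where 1.23% of 10652 genes were called higher and 1.44% lower. Hist1h1c is also on the gene list that the study drew from the DEX comparison in these cells, so the list gives no independent evidence of its direction. Without the filter on low counts 3 of 64 members were called, where 2.82% of genes were, with Hist3h2ba higher and Hist2h2ab, which had 0 UMIs in both DEX litters and 2 and 13 in the PBS litters, lower.

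The other H1 genes lay closer together. Hist1h1e was at 369, 332, 315 and 297 CPM in DEX-1, DEX-2, PBS-1 and PBS-2, a log2 difference of 0.20 ± 0.08 (adjusted p = 0.224). Hist1h1a was at 59.0, 50.3, 36.9 and 49.6 CPM (0.33 ± 0.14, edgeR adjusted p = 0.308), and Hist1h1d at 52.7, 54.2, 40.3 and 51.1 CPM (0.22 ± 0.13). Both had the DEX litters above the PBS litters, and neither passed the edgeR test after Benjamini-Hochberg adjustment. Hist1h1b was at 223, 204, 195 and 214 CPM, with overlapping groups (0.06 ± 0.08).

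**Figure D3:**
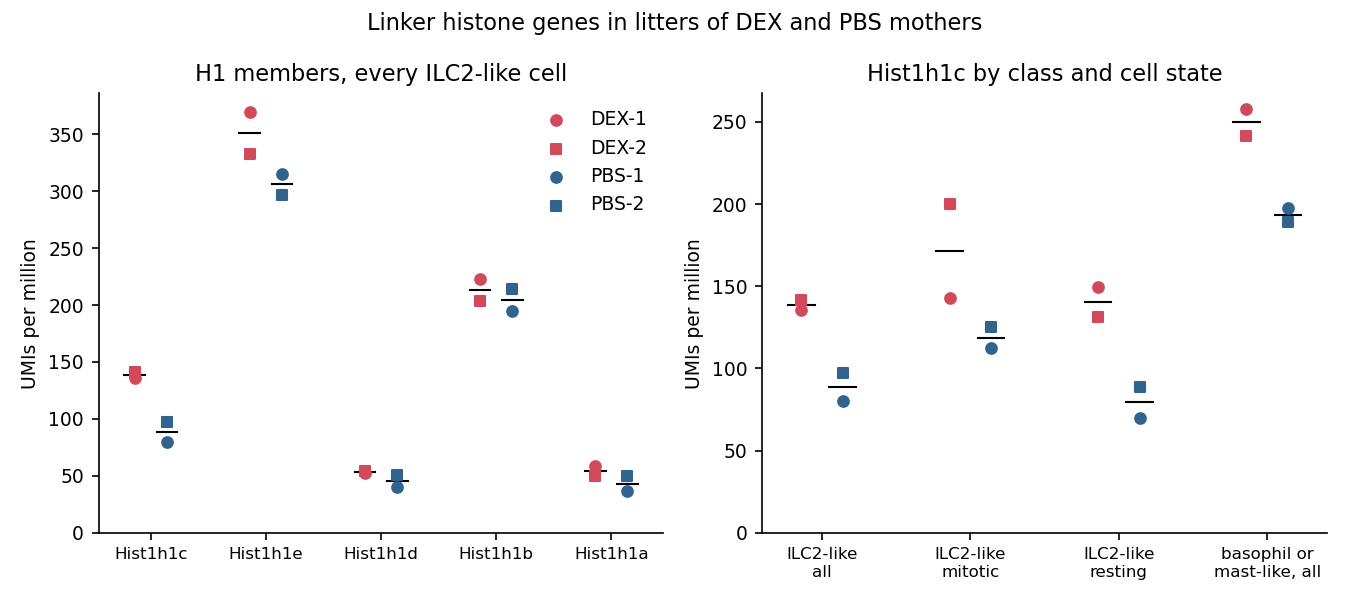
Left, levels of 5 H1 genes in all ILC2-like cells of each litter, and right, levels of Hist1h1c by class and cycle state, in CPM with bars at the mean of the 2 litters of a group. Hist1h1c is higher in both DEX litters (136 and 142) than in both PBS litters (80.0 and 97.0) in all ILC2-like cells.

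Hist3h2ba, an H2B gene of the Hist3 group, came next to the threshold. It was at 20.9, 18.7, 13.0 and 11.8 CPM in DEX-1, DEX-2, PBS-1 and PBS-2, a log2 difference of 0.69 ± 0.18 (edgeR quasi-likelihood test, Benjamini-Hochberg adjusted p = 0.058). In basophil- or mast-like cells it was at 3.85, 2.54, 4.87 and 5.44 CPM, with both DEX litters lower. At an unadjusted p under 0.05 there were 7 members in ILC2-like cells, the others being Hist1h1e, Hist1h1a, Hist1h2bg, Hist1h2bc and, lower in DEX, Hist1h2be. Both DEX litters were above both PBS litters for 10 of 38 members, where 20.1% of genes were, and below for 4, where 22.0% of genes were. The median difference of members was 0.18 on the log2 scale and that of all genes -0.00.

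The Hist1h1c difference was next taken by cycle state, without a test between states. In resting ILC2-like cells, its levels of 149 and 132 CPM in DEX litters stood against 70.0 and 88.7 CPM in PBS litters (log2 difference 0.84 ± 0.14, adjusted p = 0.00394), and it was the only call among 10 members tested, where 0.928% of 8837 genes were called higher and 0.849% lower. In mitotic ILC2-like cells, 143 and 199.98 CPM stood against 113 and 125 CPM (0.51 ± 0.14, adjusted p = 0.191, edgeR with Benjamini-Hochberg adjustment). Without DEX-1 that difference was 0.75, and without PBS-2 it was 0.60. Each of these fits leaves 1 litter in a group, and the values without DEX-2 or PBS-1 are not given here. In mitotic cells 0 of 36 members were called by edgeR, where 0.57% of 8776 genes were called in either direction, and 5 members had an unadjusted p under 0.05. DESeq2 called 0 members as well. Both DEX litters were above both PBS litters for 15 of the 36, all 5 H1 genes tested among them, where 18.6% of genes were, and below for 3, where 19.6% of genes were. Without the filter 1 of 64 members was called there, Hist1h1c, where 1.24% of genes were called.

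The share of mitotic cells among ILC2-like cells was 21.6% and 20.6% in the DEX litters against 19.8% and 24.7% in the PBS litters, so it did not separate the groups. The cluster led by Trbc1 held 32.2%, 32.4%, 27.0% and 29.4% of ILC2-like cells in the same order, slightly more in both DEX litters, and its part in the Hist1h1c difference was measured within clusters. Within the cluster led by Krt83, Hist1h1c was at 127, 159, 67.8 and 93.7 CPM (log2 difference 0.83, adjusted p = 0.013). Within the one led by Trbc1 it was at 147, 117, 103 and 103 CPM (0.37, adjusted p = 0.324, edgeR with Benjamini-Hochberg adjustment), again with both DEX litters higher. In resting cells the cluster values were 0.94 (adjusted p = 0.00416) and 0.45 (adjusted p = 0.903). In resting cells of the cluster led by Trbc1 the groups overlapped, with Hist1h1c at 224 and 107 CPM in the DEX litters and at 142 and 103 CPM in the PBS litters.

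In basophil- or mast-like cells, Hist1h1c was at 258 and 242 CPM in DEX litters and at 198 and 189 CPM in PBS litters. The direction matched that in ILC2-like cells without overlap, and the log2 difference was 0.38 ± 0.10 (edgeR quasi-likelihood test, Benjamini-Hochberg adjusted p = 1). In this class 0 of 36 members and 0.0% of 11509 genes were called by edgeR, while 3 members, Hist1h1c, Hist1h2bc and Hist1h2af, and 456 genes had an unadjusted p under 0.05, and DESeq2 called 9 genes and 0 members. Within the 4 clusters of this class, the DEX litters were above the PBS litters for Hist1h1c in 2 and overlapped with them in 2. Both DEX litters were above both PBS litters for 9 members, where 13.2% of genes were, and below for Hist3h2ba alone, where 18.0% of genes were.

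**Figure D4:**
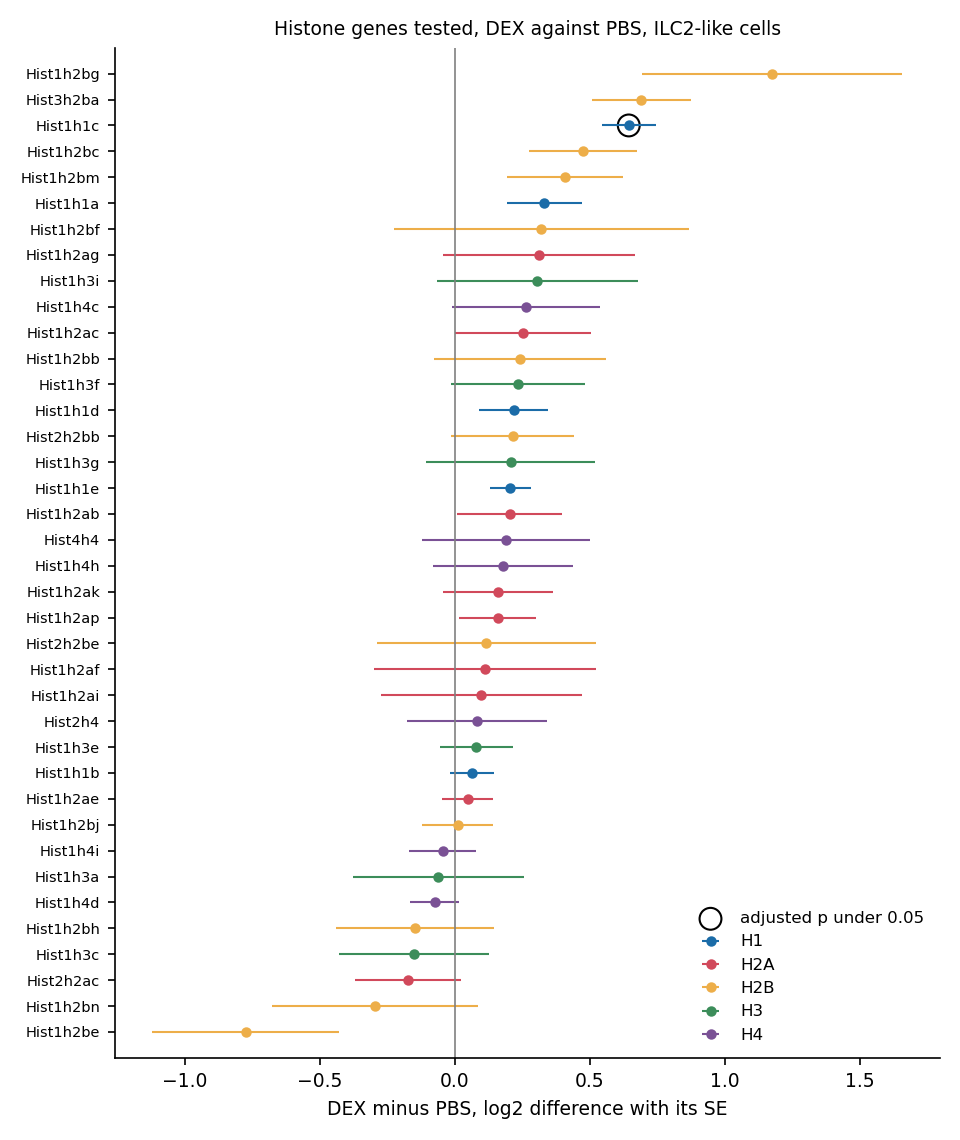
Log2 difference between DEX and PBS litters for the 38 members tested in ILC2-like cells, with bars of 1 SE and a ring where the adjusted p was under 0.05. Only Hist1h1c is ringed, at 0.64 ± 0.10.

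Of the lists around the members, 1 gene passed the DEX test in ILC2-like cells. It was the H1 variant H1fx (1.17 ± 0.27, adjusted p = 0.0267), among 11 variants tested, and 0 of 19 processing genes and 0 of 22 chaperone genes were called by edgeR in either direction. Over all 10652 genes tested, 1.23% were called higher and 1.44% lower. In resting ILC2-like cells, where 9 variants and 20 chaperone genes were tested, H2afz, Cenpa and the acetyltransferase Hat1 were called higher in DEX litters. There 0.928% of all genes tested were called higher and 0.849% lower. No gene of these lists was called in basophil- or mast-like cells, where 0 of all 11509 genes tested were called.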

How the data were processed

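The authors ran Cell Ranger 7 (multi pipeline, 7.0.0 in the matrix header) against mm10, per the labels, and deposited UMI counts per gene and hashtag for 10648 barcodes. Those counts were used without change. Barcodes with at least 200 genes and at most 5% mitochondrial UMIs were kept (10409), and HTODemux of Seurat 5.3.0 (positive quantile 0.99) gave 7268 singlets, 736 doublets between litters and 2405 negatives. Doublets within a litter were not called. Hashtags were matched to litters by number. Cells were clustered with scanpy 1.11.5 (2000 variable genes, 20 components, 15 neighbours, Leiden resolution 0.5) without the members, the state genes, the gene lists, Gata3, Nr3c1, Il1rl1 and sex-linked genes, and clusters were named from fixed markers.

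UMIs were summed per litter, class and state and tested with edgeR 4.0.16 (R 4.3.3, quasi-likelihood, TMM, filterByExpr), two-sided, with Benjamini-Hochberg adjustment over all genes and a threshold of 0.05. SE is the log2 fold change over the root of F. State comparisons had litter as a term. Methods and labels give litters of separate mothers, a figure legend a single mother a group. With 2 litters a group the spread is poorly known, and p-values measure the spread between these litters. The scripts were tested on simulated data.

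Members and lists were chosen with earlier results of these data known. Named were members with at least 100 UMIs and all called members, with litter values for the 12 most abundant and those called between DEX and PBS (Hist3h2ba was added after its values were seen), and up to 4 genes a list. Alternatives were DESeq2 1.42.0, other size factors, no filter, a ratio rule for hashtags, each litter left out, the deepest 5% of cells left out, cells thinned to 2000 UMIs, state limits of 3 and 10 UMIs, another resting group, the block and, chosen after seeing the data, single clusters. Intervals cover counting error only.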

Additional observations from a re-analysis of the deposited data

Results flagged for a closer look

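In 3 of 36 members tested the difference between mitotic and resting cells differed between the ILC2-like class and the basophil- or mast-like class, by the test of that difference in edgeR. All 3 differed more in ILC2-like cells, where 11.3% of 9998 genes were called higher and 5.13% lower. Members were thus not called more often than genes at large. On the log2 scale, ILC2-like minus basophil- or mast-like, it was 0.93 for Hist1h1e, 0.74 for Hist1h2ae and 3.31 for Hist1h2bb. For Hist1h1e, mitotic cells lay at 674 and 624 CPM over all litters and resting cells at 130 and 189 CPM, in the same order of classes. For Hist1h2ae, mitotic cells held 355 and 337 CPM and resting cells 11.5 and 15.6 CPM. For Hist1h2bb the value rests on 1 UMI in resting ILC2-like cells against 17 in resting basophil- or mast-like cells and depends on the prior count. Hist1h1e and Hist1h2ae were not called within the most mitotic cluster of each class or with cells thinned to 2000 UMIs, where Hist1h2bb was not tested, and none of the 3 was called without that cluster. With a litter left out at a time, Hist1h1e was called in 4 of 4 fits, and Hist1h2ae and Hist1h2bb in 1 of 4 each. Groups of 2 litters are too small for the search for single outlying litters that groups of 4 or more allow.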

How the results depend on the processing

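Of 137 alternative counts of members called, 105 stayed within 1.5 times the reported count and 32 did not. Of 1228 alternatives for single members, 1172 kept direction and call, 45 lost it, 9 gained it and 2 reversed. The 2 were Hist1h1c in mitotic against resting cells of only the most mitotic cluster, at -0.19 in ILC2-like and -0.35 in basophil- or mast-like cells. The cause was not tested.

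With cells thinned to 2000 UMIs, which leaves fewer counts, members called were 13 (of 13 tested) for mitotic against resting ILC2-like cells, 12 for basophil- or mast-like cells, 1 and 2 for replicating against resting cells, and 0 for the difference between classes. In only the most mitotic cluster the numbers were 15, 12, 2, 0 and 0, with 0 for DEX against PBS in all and in resting ILC2-like cells, and without that cluster 20 for mitotic and 3 for replicating ILC2-like cells, 2 for replicating basophil- or mast-like cells and 0 for the difference between classes. Without the filter 3 members were called for DEX in ILC2-like cells, 1 in mitotic ILC2-like cells and 5 for the difference between classes. DESeq2 called 2 for replicating ILC2-like cells, a state limit of 10 called 7 for replicating basophil- or mast-like cells, leaving out the deepest cells gave 1 and the wider resting group 6 for the difference between classes. A limit of 10 moved the summed ILC2-like ratio from 7.32 to 8.11.

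Leaving out 1 litter at a time gave 31 to 33 and 30 to 37 members for mitotic against resting cells of the 2 classes, 3 to 5 and 4 to 5 for replicating cells, 1 to 2 for DEX in ILC2-like, 0 to 0 in basophil- or mast-like, 0 to 1 in mitotic and 1 to 1 in resting ILC2-like cells, and 1 to 3 for the difference between classes. The summed ratios were 7.11 to 7.67 and 4.78 to 5.23. A litter left alone in its group was taken to vary like the others.

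Deviations of DEX-1 and PBS-1 from their group means had a correlation of 0.0742 over 10652 genes. With 2 litters a group, that of DEX-1 and PBS-2 is fixed as its negative (-0.0742). These values therefore cannot decide whether the litter numbers pair litters. With the number as a replicate block, 3 members were called for DEX in ILC2-like cells and 1 in mitotic ILC2-like cells.

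Counts over all genes moved by more than 1.5 times in these settings. Mitotic against resting ILC2-like cells gave 4154 calls, and 2285 with DESeq2, 1793 thinned, 1773 within and 2546 without the most mitotic cluster. Basophil- or mast-like cells gave 5213, and 2959 without the deepest cells, 1711 thinned, 1521 within and 2942 without the cluster. Replicating cells gave 2641 in ILC2-like cells (DESeq2 1154, thinned 944, within 807, without 1704) and 3355 in the other class (1834, 958, 278 and 1525). DEX against PBS gave 284 in ILC2-like cells, 116 with DESeq2, 512 without the filter, 184 without DEX-1, 78 thinned, 36 within and 169 without the cluster, and 644 with the block. In basophil- or mast-like cells it gave 0, with 9 by DESeq2, 121 without the filter, 1 to 7 with a litter left out and 4 within the cluster. Mitotic ILC2-like cells gave 50 (DESeq2 23, no filter 199, a litter left out 85 to 124, without the deepest 29, thinned 15, within 14, block 160) and resting cells 157 (DESeq2 57, no filter 286, without DEX-1 240, thinned 62, within 3, block 439). The difference between classes gave 1645, and 678 without the deepest cells, 314 thinned, 126 within and 762 without the cluster. The 2 cluster settings and the summed ratios with another resting group or a litter left out were chosen after seeing the data. Low counts of most members limit these tests.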

Other observations

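The single mitotic B-like cell, from DEX-1, held 277 member UMIs of 23765, which is 11656 CPM against 838 CPM in the 183 resting B-like cells. With 1 cell no comparison was made.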
